A study of Mus musculus with 8 samples.

Results

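The replication-dependent histone genes of mouse hair matrix keratinocytes were described by their RNA levels in cells lacking Tet2 and Tet3 and in wild-type cells, with and without the DNA methyltransferase inhibitor 5-aza. The members were all genes of the deposited tables whose names begin with Hist1h, Hist2h, Hist3h or Hist4h, which gave 68 of 32693 genes, chosen by name and not by any measured value. They comprise 6 linker H1 genes, 19 H2A genes, 19 H2B genes, 11 H3 genes and 13 H4 genes. The untreated table lists 67 of them and the 5-aza table lists all 68, since Hist1h2aa, known for expression in the testis, is listed after 5-aza alone.

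Hair matrix keratinocytes divide at the base of the follicle and build the hair. Per the labels, they were taken by flow sorting from skin at postnatal day 4.5. The groups were Tet2/Tet3 DKO, Krt14-Cre after 5-aza, WT after 5-aza, untreated Tet2/Tet3 DKO, Krt14-Cre and untreated WT, with 2 libraries each. Tet2 and Tet3 oxidise 5-methylcytosine in DNA, and Krt14 is active in basal epithelial keratinocytes, so a Krt14-driven Cre is not limited to the hair matrix. A subcutaneous dose of 50 µg of 5-aza was given at postnatal day 2.5 to the treated mice. Nothing in the labels ties a library to its own animal, so p-values measure only the spread between these libraries, which may be technical. The labels name an mRNA library kit and a ribosome-depleting total RNA kit and tie neither to a group.

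Replication-dependent histone genes are transcribed in S phase, when new nucleosomes are needed behind the replication fork. Their mRNAs have no introns and end, unlike nearly all other mRNAs of animal cells, in a conserved stem-loop instead of a poly(A) tail. The stem-loop binds Slbp, which acts in 3′ processing, translation and decay of these mRNAs. H2A, H2B, H3 and H4 form the core around which nucleosomal DNA is wrapped, and H1 binds the linker DNA between cores.

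The stem-loop was read from the annotated transcripts of GENCODE M21 (GRCm38), whose coordinates were the same as the deposited ones for 68 of 68 members. It was searched for on the transcript strand with the base of 1 pairing position free in each arm, and found in 31 of 68 members. No match says only that these letters were not in the annotated transcript. The match had the form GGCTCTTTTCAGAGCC in 24 members (3 H1, 9 H2A, 8 H2B and 4 H3) and the form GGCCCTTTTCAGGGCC in 7, all of them H4 genes. A member of each of 3 classes is shown here because its level is described below; capitals mark the stem-loop, and strands run 5′ to 3′.

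Hist1h2bj: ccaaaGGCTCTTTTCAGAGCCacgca

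Hist1h4f: tcaaaGGCCCTTTTCAGGGCCaccca

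Hist1h1c: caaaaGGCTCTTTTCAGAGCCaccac

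The annotated transcript ran 23 bases past the stem-loop in Hist1h2bj and 33 bases past it in Hist1h4f. It ran 840 bases past it in Hist1h1c, which also held the polyadenylation signal AATAAA in its last 50 bases, as did 14 of the 68 members. For 11 members, Hist1h2bn and Hist1h2ak among them, the gene model holds the coding sequence alone, so that reads from the transcript ends fall outside it.

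The genes lie in clusters, 56 of them on chromosome 13 (Hist1), 8 on chromosome 3 (Hist2), 3 on chromosome 11 (Hist3) and 1 on chromosome 6 (Hist4). On chromosome 13, 29 members stand at chr13:23531050-23764406, 19 at chr13:21715763-21837530 and 5 at chr13:22035164-22043676. The clusters are arranged in divergent pairs: 15 pairs of members stood head to head within 1000 bases, 14 of them an H2A gene with an H2B gene. The stretches between the RefSeq starts of 3 such pairs (RefSeq promoter table, GRCm38.p6, plus strand) are shown because their H2B genes are among those described below. Capitals mark the CCAAT box (CCAAT or ATTGG) and the histone octamer (ATTTGCAT or ATGCAAAT), which is known from H2B promoters as a site bound by Oct1.

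Hist1h2ak to Hist1h2bn, chr13:21753913-21754075: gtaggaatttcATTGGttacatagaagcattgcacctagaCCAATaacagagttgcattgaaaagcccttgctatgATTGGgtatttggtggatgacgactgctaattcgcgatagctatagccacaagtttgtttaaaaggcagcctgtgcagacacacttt

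Hist1h2ag to Hist1h2bj, chr13:22042950-22043197: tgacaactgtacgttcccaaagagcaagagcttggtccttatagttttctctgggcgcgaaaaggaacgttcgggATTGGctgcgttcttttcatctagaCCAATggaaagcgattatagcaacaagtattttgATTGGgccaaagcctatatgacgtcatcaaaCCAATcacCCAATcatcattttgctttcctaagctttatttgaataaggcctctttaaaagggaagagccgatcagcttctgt

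Hist1h2ah to Hist1h2bk, chr13:22035644-22035820: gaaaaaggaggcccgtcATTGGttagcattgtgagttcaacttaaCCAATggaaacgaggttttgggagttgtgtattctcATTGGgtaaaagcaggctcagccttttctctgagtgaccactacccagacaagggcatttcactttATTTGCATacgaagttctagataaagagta

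The stretch of Hist1h2ak and Hist1h2bn holds 3 CCAAT boxes and 0 octamers, that of Hist1h2ag and Hist1h2bj holds 5 and 0, and that of Hist1h2ah and Hist1h2bk holds 3 and 1, with no overlapping matches. Of the 68 members, 60 matched the promoter table. Within 250 bases before the start, on both strands, the octamer stood in 7 of 17 H2A promoters, 7 of 17 H2B promoters and in none of the 6 H1, 9 H3 and 12 H4 promoters, against 1.60% of all 32851 promoters. Paired H2A and H2B genes can share a match, since their windows overlap. The CCAAT box stood in 100% of H1, H2A and H2B promoters, in 88.9% of H3 promoters and in 25.0% of H4 promoters, against 33.8% of all promoters.

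Many members are near copies of each other, which bears on every value of a single gene. The annotated coding sequences of all 13 H4 genes translate to 1 protein, and those of the 65 protein-coding members to 30. At least 1 stretch of 150 bases is identical in another gene for 53 of 68 members, and for 23 members more than 50 percent of such stretches are. Reads from these stretches may have been dropped or split in the authors' counting. Hist1h2be and Hist1h1e overlap, and the labels do not give the strand setting of the counting. Of the members, 3 are annotated as pseudogenes (Hist1h2aj, Hist1h2al and Hist3h2bb-ps).

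Levels are in FPKM, reads scaled by gene length and by the library total. Library totals ran between 39493929 and 58353167 reads after 5-aza and between 19528602 and 22837436 in untreated libraries, and listed genes held 38.4% to 42.4% and 55.8% to 62.0% of them. All 13 listed hair matrix keratinocyte markers were above 0 log2 difference in DKO in both comparisons, with summed levels of 731 to 767 FPKM in DKO and 498 to 534 in WT after 5-aza, and 1021 to 1133 in DKO and 583 to 739 in WT untreated. Tet3 had a log2 difference of -0.72 ± 0.08 (SE) after 5-aza and -0.63 ± 0.09 untreated, with adjusted p of 0.308 and 0.151 by limma, and Tet2 had -0.17 ± 0.07 after 5-aza and -0.23 ± 0.09 untreated (adjusted p = 0.583 and 0.432 by limma). In the authors' deposited table Tet3 had -0.87 after 5-aza and -0.73 untreated (adjusted p = 1.5e-09 and 1.8e-07 by DESeq2). Tet2 had -0.35 after 5-aza and -0.33 untreated there (adjusted p = 0.400 and 0.300 by DESeq2). Which exons were deleted is not given in the labels, so levels over the whole gene check the genotype only in part. Dermal papilla markers summed to 26.0 to 54.8 FPKM in DKO and 46.3 to 113 in WT after 5-aza, and to 152 to 161 in DKO and 283 to 284 in WT untreated. Fibroblast markers summed to 97.1 to 140.1 FPKM in DKO and 67.8 to 144 in WT after 5-aza, and to 1139 to 1359 in DKO and 469 to 1264 in WT untreated. Immune markers summed to 0.670 to 1.09 FPKM in DKO and 0.513 to 0.902 in WT after 5-aza, and to 7.63 to 9.08 in DKO and 2.07 to 3.12 in WT untreated. Melanocyte markers summed to 26.9 to 135 FPKM in DKO and 19.9 to 93.9 in WT after 5-aza, and to 34.1 to 36.6 in DKO and 27.6 to 28.1 in WT untreated. No marker of these lists was at 0 in all libraries of a table, and the part of such cells in the histone values was not tested. In sorted bulk RNA, fewer cells of a type and less RNA per cell cannot be told apart.

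Histone RNA was abundant in every library, and H4 had the largest share of its summed FPKM in both tables. That order of the classes rests on the deposited gene lengths and need not hold in reads. Summed over the members, the level was 2330 and 2031 FPKM in DKO after 5-aza and 2696 and 2790 FPKM in WT after 5-aza. Untreated, it was 6112 and 5406 FPKM in DKO and 5466 and 5827 FPKM in WT. Both DKO libraries were thus below both WT libraries after 5-aza, while the untreated groups overlapped. Scaled instead to reads in listed genes (reads per 1000000), the members took 4345 and 4140 in DKO after 5-aza, against 5504 and 5712 in WT after 5-aza. On that scale the untreated libraries had 6539 and 5883 in DKO and 6205 and 5967 in WT, so the order of the groups was alike on both scales.

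**Figure D1:**
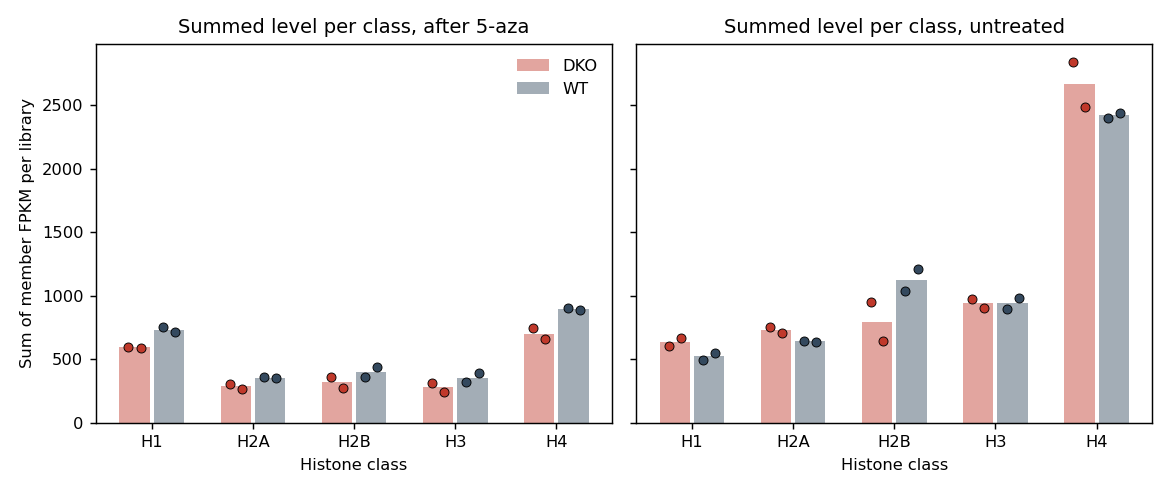
Summed FPKM of the members of each histone class (x axis) per library (points) with the mean of 2 libraries (bars), DKO left of WT, after 5-aza on the left and untreated on the right. After 5-aza the DKO libraries lie below the WT libraries for H1, H2A, H3 and H4; untreated, H2B is the class with both DKO libraries below both WT libraries, which without Hist1h2bn overlap.

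By class, the H1 genes summed to 593 ± 8.73 FPKM in DKO and 733 ± 24.4 in WT after 5-aza (mean ± SD, n = 2 libraries, as for all such values here). H2A summed to 288 ± 27.3 in DKO and 354 ± 3.99 in WT, and H4 to 701 ± 62.5 in DKO and 898 ± 9.69 in WT. For these 3 classes no DKO library reached a WT library. H2B summed to 318 ± 64.2 FPKM in DKO and 402 ± 55.0 in WT after 5-aza, and H3 to 280 ± 49.1 in DKO and 356 ± 49.4 in WT. In H2B the DKO library with the higher sum had 363.6 FPKM and the WT library with the lower sum had 363.4, and in H3 the groups stood at 315 in DKO and 321 in WT at their nearest, so the H2B sums overlapped and the H3 sums were only narrowly apart; without Hist1h3e or without Hist1h3a the H3 sums overlapped too.

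Untreated, the H1 genes summed to 634 ± 45.6 FPKM in DKO and 522 ± 41.7 in WT, and the H2A genes to 728 ± 30.7 in DKO and 641 ± 3.37 in WT. H2B summed to 796 ± 215 FPKM in DKO and 1127 ± 122 in WT, H3 to 940 ± 49.3 in DKO and 940 ± 62.2 in WT, and H4 to 2662 ± 250 in DKO and 2418 ± 32.2 in WT. H1, H2A and H4 were therefore higher in both untreated DKO libraries than in both WT libraries, H2B was lower, and H3 overlapped. Except for H1, each such order rested on a single gene. Without the pseudogene Hist1h2al the H2A sums were 489 and 449 FPKM in DKO and 416 and 541 in WT, and 10 of 16 tested H2A genes had a log2 difference below 0. Without Hist1h2bn the H2B sums were 929.6 and 619.97 FPKM in DKO and 899.9 and 1052 in WT, and without Hist1h4a the H4 sums were 2509 and 2165 in DKO and 2177 and 2204 in WT, so that all 3 classes overlapped. With 2 libraries a side, an exact two-sided permutation test of a class sum cannot go below p = 0.333, so none is given.

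The composition differed between the tables. H1 RNA took 27.3% of histone FPKM in DKO and 26.7% in WT after 5-aza, and 11.1% in DKO and 9.23% in WT untreated. H4 RNA took 32.2% in DKO and 32.8% in WT after 5-aza, and 46.2% in DKO and 42.8% in WT untreated. The tables were normalised separately, so levels across them are set side by side with no test, and the drug, the depth, the library kit and the authors' processing cannot be told apart. Of 67 members in both tables, 58 were lower after 5-aza in DKO and 57 in WT. This share was near that of all genes above 1 FPKM in either group, 10346 of 11917 in DKO and 10359 of 11948 in WT. The median ratio was 0.383 in DKO and 0.449 in WT over the members, against 0.669 and 0.653 for those genes. The members were not limited to those above 1 FPKM. All 11 H3 and all 13 H4 genes were lower after 5-aza in both genotypes, while 4 of 6 H1 genes in DKO and 5 of 6 in WT were higher.

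The linker gene Hist1h1e had 129 and 136 FPKM in DKO and 164 and 146 in WT after 5-aza, and 40.5 and 44.2 in DKO and 31.6 and 32.1 in WT untreated. The H2B gene Hist2h2bb had 81.0 and 70.5 FPKM in DKO and 95.9 and 99.1 in WT after 5-aza, and 14.1 and 13.6 in DKO and 12.2 and 15.1 in WT untreated. Both were higher in every 5-aza library than in any untreated library, opposite to most members and to most genes above 1 FPKM.

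A few genes carried much of the summed FPKM. The 10 members with the highest mean held 54.2% of histone FPKM after 5-aza and 51.6% untreated, and the median member had 18.5 and 41.8 FPKM. After 5-aza the highest was Hist1h4f, with 184.4 and 184.6 FPKM in DKO and 266 and 233 in WT. Untreated it was Hist1h4h, with 701 and 596 FPKM in DKO and 599 and 574 in WT, its groups overlapping. Means were above 100 FPKM for 6 members after 5-aza and 18 untreated, and below 1 FPKM for 13 and 4. Genes known for expression in the testis were low: the linker gene Hist1h1t averaged 1.35 ± 0.42 FPKM in DKO and 1.54 ± 0.90 in WT after 5-aza, and 1.08 ± 0.01 in DKO and 1.08 ± 0.10 in WT untreated. Hist1h2aa had 1 read in a single library.

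By FPKM, the highest H1 and H3 genes were the same in both tables. Such rankings rest on the deposited gene lengths. In WT replicate 1 after 5-aza, Hist1h1e (1929 bases) had 14930 reads and Hist1h1b (742 bases) had 8711. Hist1h1b led H1, with 197 and 186 FPKM in DKO and 249 and 236 in WT after 5-aza, and 316 and 333 in DKO and 257 and 286 in WT untreated. Hist1h1a, the next, had 148 and 139 FPKM in DKO and 186 and 185 in WT after 5-aza, and 168 and 198 in DKO and 148 and 174 in WT untreated. Hist1h3e led H3, with 70.0 and 61.9 FPKM in DKO and 77.2 and 88.1 in WT after 5-aza, and 184 and 190.5 in DKO and 152 and 166 in WT untreated. In each of Hist1h1b and Hist1h3e the DKO libraries lay below WT after 5-aza and above WT untreated. In H2B the order changed between the tables: Hist2h2bb, given above, and Hist1h2bg were highest after 5-aza, and Hist1h2bk and Hist1h2bl untreated. Hist1h2bg had 52.5 and 39.0 FPKM in DKO and 53.4 and 67.4 in WT after 5-aza, and 95.5 and 80.7 in DKO and 78.5 and 116 in WT untreated. Its groups were apart by a small margin after 5-aza and overlapped untreated. The pseudogene Hist1h2al was among the 2 highest H2A genes of both tables, with 81.1 and 83.6 FPKM in DKO and 117 and 65.3 in WT after 5-aza, and 261 and 258 in DKO and 227 and 97.8 in WT untreated, the WT libraries being far apart.

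The H4 genes encode the same protein at very different FPKM, which rest in part on the deposited gene lengths. In WT replicate 1 after 5-aza, Hist4h4 (2862 bases) and Hist1h4k (311 bases) had 1206 and 1630 reads, but 8.93 and 111 FPKM. Stretches shared between genes also bear on these values. Beside Hist1h4h and Hist1h4f, Hist1h4k had 88.3 and 79.5 FPKM in DKO and 111 and 107 in WT after 5-aza, and 366 and 362 in DKO and 298 and 323 in WT untreated. Hist1h4d had 104 and 97.1 FPKM in DKO and 121 and 126 in WT after 5-aza, and 287 and 250.1 in DKO and 243 and 270 in WT untreated. Hist1h4k was lower in both DKO libraries after 5-aza and higher in both untreated, and Hist1h4d was lower after 5-aza and overlapped untreated. Of the H4 genes outside chromosome 13, Hist2h4 had 44.2 and 40.9 FPKM in DKO and 56.5 and 47.0 in WT after 5-aza, and 191 and 188 in DKO and 164 and 145 in WT untreated. Hist4h4 had 9.91 and 6.19 FPKM in DKO and 8.93 and 10.8 in WT after 5-aza, and 30.3 and 21.0 in DKO and 24.8 and 22.7 in WT untreated, its groups overlapping in both tables.

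After 5-aza the histone genes stood below WT in the DKO libraries nearly as a whole, by about the same amount in every class, although no single member passed the test. The question was whether DKO and WT differ when both are given 5-aza. Of the 68 members, 61 passed the filter on low reads, and 58 of the 61 (95.1%) had a log2 difference below 0, against 37.2% of all 16856 genes tested, and 3 were above 0, against 62.8%. The median difference was -0.31 over the members and 0.03 over all genes. By class the median was -0.26 for H1 (6 of 6 below 0), -0.25 for H2A (13 of 15), -0.32 for H2B (16 of 17), -0.32 for H3 (11 of 11) and -0.35 for H4 (12 of 12). In 36 members (59.0%) both DKO libraries were below both WT libraries, against 11.6% of all genes, and in 1 member both were above, against 28.0%.

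With limma on log2(FPKM + 1), 0 members and 0 of 16856 genes (0.0%) passed an adjusted p of 0.05, and voom on the recovered reads called 0 members as well. At an unadjusted p under 0.05, 16 members (26.2%) were lower in DKO, against 2.3% of all genes, and 1 was higher, against 6.64%. The extent rests on single libraries. Without DKO replicate 2, 45 of 61 members had a difference below 0, against 6179 of 16442 genes, and the median over the members was -0.17. Without WT replicate 2, 51 of 61 did, against 7126 of 16682 genes, and the median was -0.23. The median over the members was -0.11 between DKO 1 and WT 1, -0.27 between DKO 1 and WT 2, -0.35 between DKO 2 and WT 1, and -0.46 between DKO 2 and WT 2, so every pair of libraries stood on the same side. Scaling to reads in listed genes gave 30 of 61 members lower at an unadjusted p under 0.05 by limma, against 699 of 16856 genes. The median over the members was then -0.41. Over all genes, that scaling put 51.4% of the genes at such a p on the higher side, against 74.3% as deposited.

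The median was below 0 in each division of the members given here. By position, the median was -0.38 at chr13:21715763-21837530 (13 of 14 below 0), -0.34 at chr13:22035164-22043676 (5 of 5), -0.30 at chr13:23531050-23764406 (29 of 29) and -0.18 in the chromosome 3 cluster (7 of 8), while in the small chromosome 11 cluster it was -0.04 (2 of 3). The median was -0.29 in the 28 members with the stem-loop in an annotated transcript and -0.32 in the 33 without. It was -0.28 in the 14 members that share no stretch of 150 bases with another gene (13 below 0), and -0.28 in the 18 that share more than 50 percent of them (17 below 0). In the 13 members with AATAAA near a transcript end it was -0.19 (11 below 0). None of these divisions was tested. With 58 of 61 members below 0 after 5-aza, nearly any division would give medians below 0.

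Among the linker genes, Hist1h1a had a log2 difference of -0.37 ± 0.13 (adjusted p = 0.529 by limma) and Hist1h1b of -0.34 ± 0.14 (adjusted p = 0.603 by limma). Among the core genes Hist1h4f stood at -0.43 ± 0.15 (adjusted p = 0.545 by limma). These 3 members are those that passed an adjusted p of 0.05 in the authors' deposited table, all lower in DKO, where 0.161% of listed genes passed in that direction. The log2 change was -0.44 for Hist1h1a, -0.41 for Hist1h1b and -0.50 for Hist1h4f in the authors' deposited table. No member passed in the higher direction in the authors' deposited table, where 0.547% of listed genes did.

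The members with the smallest p after 5-aza were the H2B gene Hist1h2bk, the H4 gene Hist1h4i and the H2A gene Hist1h2ai. Hist1h2bk had 13.7 and 14.8 FPKM in DKO and 19.0 and 19.1 in WT (-0.40 ± 0.08, adjusted p = 0.363 by limma). Hist1h2ai had 17.7 and 17.8 FPKM in DKO and 22.3 and 22.6 in WT (-0.32 ± 0.07, adjusted p = 0.395 by limma). In both the libraries of a group lay close together and the groups were apart. Hist3h2a, an H2A gene outside the large cluster, was the only tested member higher in both DKO libraries, at low levels of 0.685 and 0.791 FPKM in DKO and 0.484 and 0.499 in WT (0.22 ± 0.06, adjusted p = 0.447 by limma). Its counts were 58 and 99 reads in DKO and 49 and 49 in WT. The H4 gene Hist1h4m, which did not pass the filter, was also above WT in both, from 9 and 11 reads in DKO and 4 and 3 in WT.

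**Figure D2:**
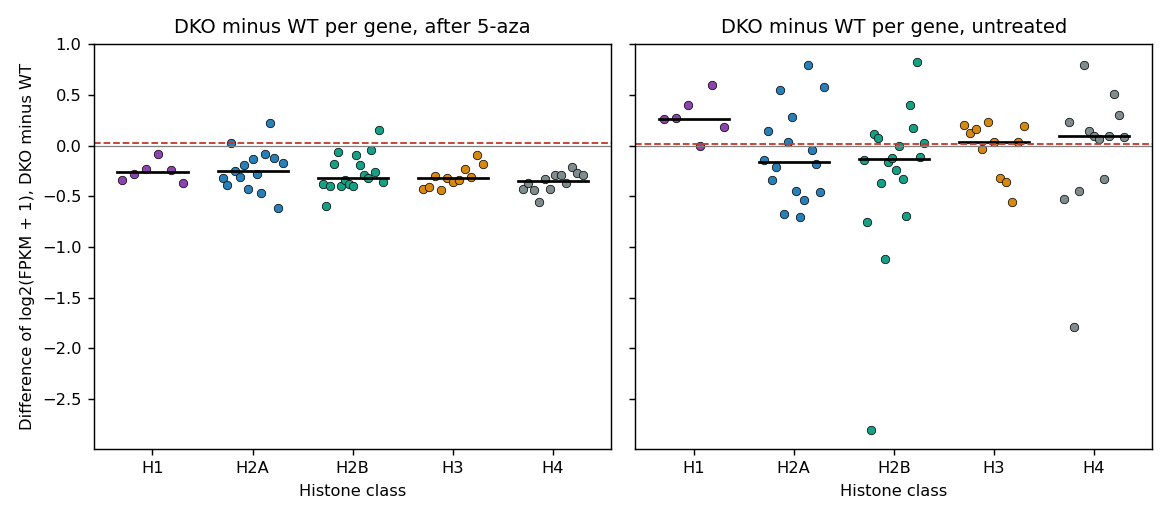
DKO minus WT difference of log2(FPKM + 1) for every tested member (points) by histone class, after 5-aza (left, 61 members) and untreated (right, 64 members); black lines are class medians and the dashed red line is the median of all genes tested. After 5-aza 58 of 61 points lie below 0 within a narrow band, and untreated 31 of 64 do, with Hist1h2bn lowest at -2.81.

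In untreated libraries the histone genes showed no common shift, and a few members stood apart in opposite directions. The question was whether loss of Tet2 and Tet3 goes with a difference in these genes without the drug. Of 67 listed members, 64 passed the filter; 33 had a log2 difference above 0 (against 53.8% of all genes) and 31 below (against 46.2%), with a median of 0.03 against 0.01 for all 17339 genes tested. Class medians were 0.26 for H1 (5 of 6 above 0), -0.16 for H2A (6 of 16), -0.13 for H2B (6 of 18), 0.04 for H3 (7 of 11) and 0.09 for H4 (9 of 13). Groups did not overlap in 14 members higher in DKO (21.9%, against 24.1% of all genes) and 15 lower (23.4%, against 19.3%), which is near the background.

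By limma 1 of 17339 genes (0.00577%) passed an adjusted p of 0.05 and 0 members did. At an unadjusted p under 0.05, 4 members were higher (6.25%, against 6.72% of all genes) and 8 lower (12.5%, against 4.73%). These counts changed when a library was left out. The median over the members was then -0.04 without DKO replicate 1, 0.08 without DKO replicate 2 and 0.08 without WT replicate 2. Voom on the recovered reads called 147 genes, among them 2 members, Hist1h2bn and Hist1h4i. At an adjusted p of 0.05 in the authors' deposited table, 3 members were higher in DKO, as were 0.793% of listed genes, and 4 were lower, as were 0.486%. The higher ones were Hist1h1c, Hist1h4a and Hist1h4i, and the lower ones Hist1h2bn, Hist1h2bj, Hist1h2bb and Hist1h3a.

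The largest difference of the 64 tested members was in Hist1h2bn (ENSMUSG00000095217, chr13:21754123-21754503), an H2B gene. It had 17.9 and 23.7 FPKM in untreated DKO and 140.5 and 161 FPKM in untreated WT, from 151 and 176 reads in DKO and 1219 and 1394 in WT. Both WT libraries were far above both DKO libraries, with a mean 7.25-fold higher in WT. The log2 difference was -2.81 ± 0.19 with an adjusted p of 0.0746 by limma and 0.00120 by voom. In the authors' deposited table it was -2.89, with an adjusted p of 6.4e-51 by DESeq2. After 5-aza the gene was low in all libraries, with 3.87 and 2.17 FPKM in DKO and 2.85 and 5.92 in WT, overlapping groups and a difference of -0.39 ± 0.36 (adjusted p = 0.804 by limma). Without WT replicate 2 that difference was 0.03.

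The gene beside it did not share this pattern. Hist1h2ak (chr13:21753435-21753827), the H2A gene that faces Hist1h2bn across 295 bases, had 237 and 226 FPKM in untreated DKO and 191 and 229 in untreated WT, and the groups overlapped (0.14 ± 0.28, adjusted p = 0.896 by limma). After 5-aza it had 59.6 and 50.0 FPKM in DKO and 63.2 and 81.1 in WT. None of the stretches of 150 bases of Hist1h2ak was shared with another gene, while 34.9% of those of Hist1h2bn were, with up to 9 other H2B genes. Over all head-to-head pairs with both members tested, the differences had the same sign in 8 of 11 pairs after 5-aza and in 6 of 12 untreated. Since 58 of 61 members were below 0 after 5-aza, most pairs would share a sign there whatever the pairing.

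**Figure D3:**
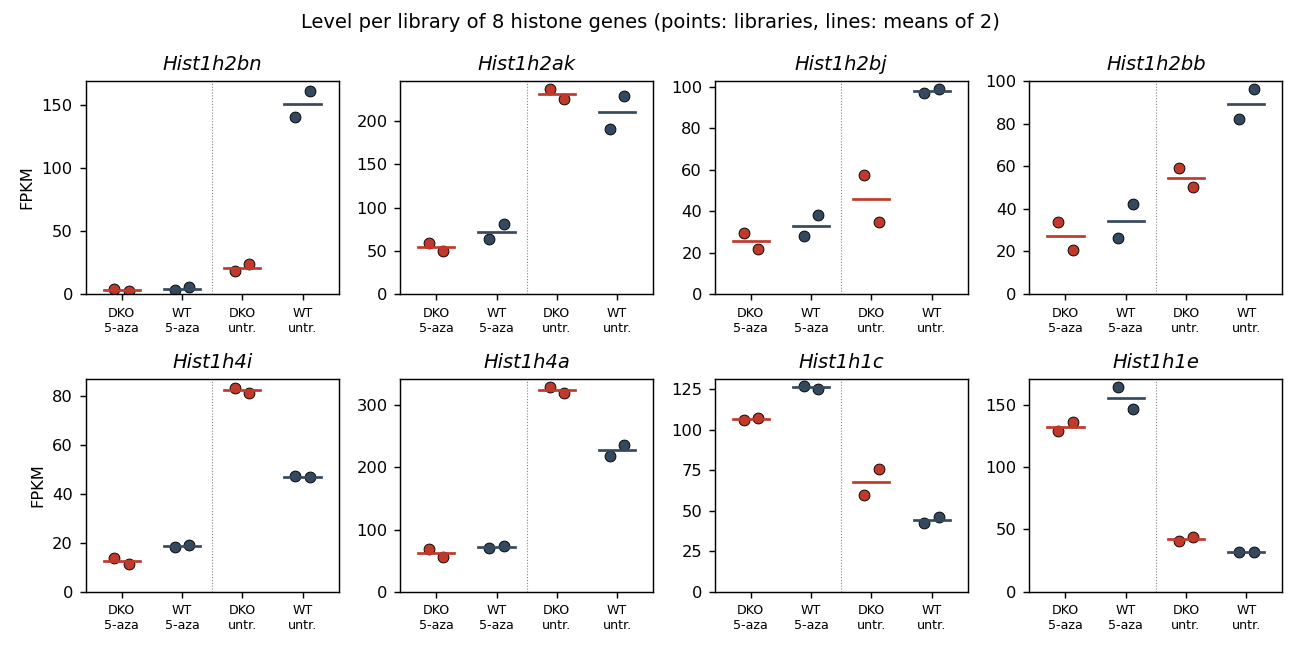
FPKM per library (points) and mean of 2 libraries (lines) for 8 histone genes, with DKO left of WT, and the 5-aza libraries left of the untreated ones; y axes start at 0 and differ between panels. Hist1h2bn is near 20 FPKM in untreated DKO and above 140 in untreated WT, while its neighbour Hist1h2ak overlaps; Hist1h4i and Hist1h1c are above WT in untreated DKO and below WT after 5-aza.

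Other H2B genes and an H3 gene stood lower in untreated DKO. Hist1h2bj, which faces Hist1h2ag, had 57.3 and 34.6 FPKM in DKO and 96.8 and 98.9 in WT (-1.12 ± 0.27, adjusted p = 0.276 by limma; -1.11 in the authors' deposited table). Hist1h2bb had 59.1 and 50.2 FPKM in DKO and 82.1 and 96.3 in WT (-0.70 ± 0.18, adjusted p = 0.288 by limma; -0.73 in the authors' deposited table). Hist1h3a, which encodes H3, had 47.1 and 58.1 FPKM in DKO and 73.0 and 81.9 in WT (-0.55 ± 0.18, adjusted p = 0.374 by limma; -0.58 in the authors' deposited table). In all 3 the groups were apart, and in Hist1h2bj the DKO libraries differed widely from each other. Other abundant H2B genes overlapped: Hist1h2bk had 207 and 111 FPKM in DKO and 202 and 192 in WT, and Hist1h2bl 204 and 134 in DKO and 156 and 214 in WT.

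The 4 members higher in untreated DKO at an unadjusted p under 0.05 were the H4 gene Hist1h4i, the H2A gene Hist2h2aa2 and the linker genes Hist1h1c and Hist1h1e; Hist1h4a is added because it passed in the authors' deposited table. Hist1h4i (ENSMUSG00000060639, chr13:22040636-22041362) had 83.4 and 81.2 FPKM in DKO and 47.3 and 46.8 in WT, a difference of 0.79 ± 0.14 with an adjusted p of 0.191 by limma and 0.0182 by voom. Of its stretches of 150 bases, 2.08% were shared with other genes. The replicates were almost equal and the groups far apart, and the authors' deposited table gives 0.78. Hist1h1c had 59.6 and 75.7 FPKM in DKO and 42.6 and 45.8 in WT (0.59 ± 0.17, adjusted p = 0.335 by limma; 0.59 in the authors' deposited table). Hist1h1e, with the levels given above, had a difference of 0.40 ± 0.12 (adjusted p = 0.343 by limma). Hist1h4a had 329 and 320.0 FPKM in DKO and 218 and 237 in WT (0.51 ± 0.30, adjusted p = 0.586 by limma; 0.49 in the authors' deposited table). Hist2h2aa2, an H2A gene of the chromosome 3 cluster, had 9.91 and 8.65 FPKM in DKO and 5.15 and 6.66 in WT (0.58 ± 0.14, adjusted p = 0.281 by limma).

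Some members were set apart by a single untreated WT library, and were picked out after their values had been seen. The H4 gene Hist1h4m had 6.40 and 4.34 FPKM in DKO, and 59.6 in WT replicate 1 against 6.79 in WT replicate 2. The H2A gene Hist2h2ac had 24.9 and 27.6 FPKM in DKO, and 19.9 in WT replicate 1 against 65.6 in WT replicate 2. Hist1h2al, given above, showed its low value in WT replicate 2.

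The difference between DKO and WT itself differed between the tables in sign for several members, though none passed the interaction test. Over 8 libraries, limma called 5 of 18505 genes (0.027%) and 0 of 64 members at an adjusted p of 0.05; at an unadjusted p under 0.05, 9 members (14.1%, against 3.04% of all genes) had a lower DKO minus WT difference after 5-aza than untreated and 1 (against 3.05%) a higher one. Both counts changed when a library was left out, and the median interaction over the members then ran between -0.44 and -0.10. Voom called 1 gene, and no member. The interaction was below 0 in 43 members, against 44.4% of all genes, and above 0 in 21, against 55.6%. Its median was -0.23 over the members and 0.02 over all genes, with class medians of -0.58 for H1 (6 of 6 below 0), -0.46 for H4 (9 of 13), -0.39 for H3 (9 of 11), -0.16 for H2B (11 of 18) and -0.05 for H2A (8 of 16); without 5-aza DKO replicate 2 the median was -0.10. The 64 members include Hist1h4m, Hist1h2ao and Hist1h2ba, which did not pass the filter of the 5-aza comparison. Their interactions of 2.14, 0.22 and -0.47 rest on 3 to 11 reads in each 5-aza library. A scale that differs between the tables cancels in the interaction test only for genes of high FPKM and only if it acts on both genotypes alike.

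The lowest interaction p was that of Hist1h4i, higher in untreated DKO as given above and lower after 5-aza, where it had 13.6 and 11.4 FPKM in DKO and 18.3 and 19.2 in WT (-0.55 ± 0.11, adjusted p = 0.365 by limma). Its interaction was -1.35 ± 0.14 with a p of 5.9e-05 and an adjusted p of 0.0991 by limma. Hist1h1c stood the same way, with 106 and 107 FPKM in DKO and 127 and 125 in WT after 5-aza, and an interaction of -0.84 ± 0.21 (adjusted p = 0.540 by limma). Hist1h1d had 17.8 and 18.3 FPKM in DKO and 23.1 and 21.1 in WT after 5-aza, and 16.2 and 14.0 in DKO and 12.1 and 12.5 in WT untreated (interaction -0.55 ± 0.13, adjusted p = 0.503 by limma). Hist1h2bn was the member with a positive interaction at an unadjusted p under 0.05, of 2.41 ± 0.46 with an adjusted p of 0.411 by limma. Without untreated WT replicate 2 the test called 1 member, Hist1h4m, which has 4 and 3 reads in WT after 5-aza.

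**Figure D4:**
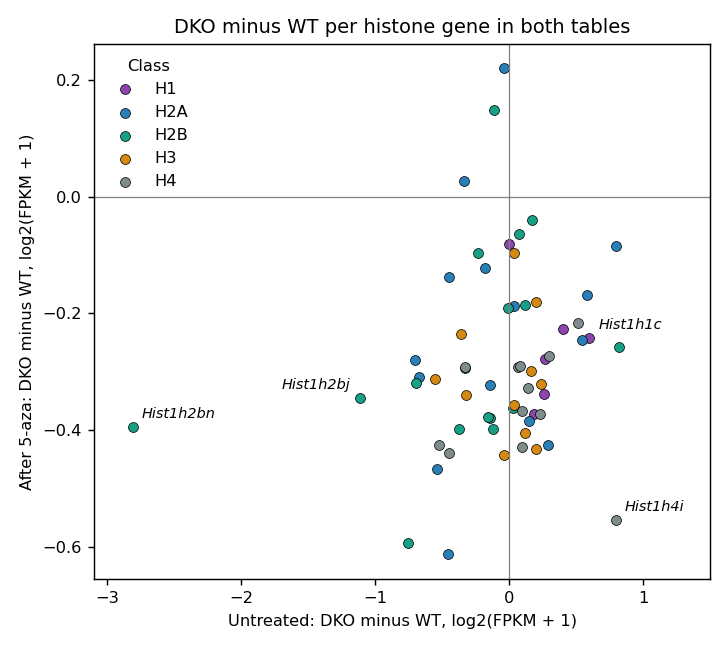
DKO minus WT difference of log2(FPKM + 1) per member, untreated on the x axis and after 5-aza on the y axis, for the 61 members tested in both tables, coloured by class. Of them, 32 are above 0 untreated and below 0 after 5-aza, and 26 are below 0 in both.

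In 11 members (18.0% of 61, against 1.47% of 15699 genes tested in both tables) both DKO libraries were above both WT libraries untreated and below both after 5-aza. They were the linker genes Hist1h1b, Hist1h1c, Hist1h1d and Hist1h1e, the H4 genes Hist1h4a, Hist1h4i, Hist1h4k and Hist2h4, the H2A genes Hist1h2ah and Hist2h2aa2 and the H3 gene Hist1h3e. The reverse pattern was seen in 0 members (against 2.57% of genes). In 7 members (11.5%, against 3.85%) both DKO libraries were lower in both tables, namely Hist1h2ab, Hist1h2ac, Hist1h2ag, Hist1h2bm, Hist1h3a, Hist1h4c and Hist1h4j. All 3 shares follow in part from those after 5-aza alone. There 59.0% of tested members were lower without overlap, against 11.6% of genes, and 1.64% were higher, against 28.0%. Untreated shares were near the background, so these patterns are not a separate result.

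Genes that work with the histones were described from lists, and none of their genes passed an adjusted p of 0.05 by limma in any comparison. Among 11 histone variant genes outside the named clusters, whose mRNAs can be polyadenylated, 6 were above 0 after 5-aza with a median of 0.00, and 7 untreated with a median of 0.09. At an unadjusted p under 0.05, 2 of them were higher after 5-aza, with H1fx first at 0.30 ± 0.08 (adjusted p = 0.457 by limma), and 1 untreated, H2afj, at 0.34 ± 0.08 (adjusted p = 0.284 by limma). Over all genes tested, 6.64% were higher at such a p after 5-aza and 6.72% untreated. H2afx, which is known to give both a stem-loop and a polyadenylated mRNA, had differences of -0.17 after 5-aza and 0.31 untreated, and an interaction of -0.49 (adjusted p = 0.808 by limma). Slbp, the stem-loop binding protein, had 3.07 and 2.99 FPKM in DKO and 3.13 and 3.07 in WT after 5-aza, and 3.61 and 3.29 in DKO and 3.96 and 3.83 in WT untreated. The groups were apart only narrowly, with differences of -0.03 ± 0.06 after 5-aza and -0.14 ± 0.09 untreated (adjusted p = 0.939 and 0.635 by limma). Of 16 tested genes of histone transcription and 3′ processing, 0 had an unadjusted p under 0.05 in either table, and likewise 0 of 8 genes of histone mRNA decay and translation. Of 18 histone chaperone genes, 1 was lower after 5-aza at an unadjusted p under 0.05, Asf1b, which passes H3 and H4 to the assembly machinery (-0.24 ± 0.09, adjusted p = 0.551 by limma). At such a p 2.3% of all genes were lower after 5-aza.

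Markers of cycling cells were compared beside the histones, since histone mRNA is made in S phase. After 5-aza the 28 S-phase genes summed to 223 to 254 FPKM in DKO and 236 to 247 in WT. Of them, 17 of 28 were below 0, against 37.2% of all genes, with a median of -0.03. Lower at an unadjusted p under 0.05 was 1 gene (Pola1, a DNA polymerase subunit, -0.20 ± 0.07, adjusted p = 0.555 by limma), against 2.3% of all genes. The 22 genes of G2 and mitosis had 21 below 0 and a median of -0.07, with 0 at an unadjusted p under 0.05 by limma. Their sums overlapped, at 262 to 329 FPKM in DKO and 289 to 327 in WT. Untreated, 26 of 28 S-phase genes were below 0, against 46.2% of all genes, with a median of -0.11. The sums were 286 to 317 FPKM in DKO and 301 to 357 in WT. Of the G2 and mitosis genes, 14 of 22 were below 0 untreated with a median of -0.03. Among these, 1 gene, Birc5, was higher at an unadjusted p under 0.05 by limma, against 6.72% of all genes. The part of both lists in the histone values was not tested.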

How the data were processed

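RNA was measured in 8 libraries of 4 groups. Per the submitters' processing notes, Trim Galore, STAR, HTSeq and DESeq2 were used with the builds GRCm38 and mm10; their versions are not given in the sources used here. The authors deposited a table for each comparison of DKO with WT. Its library columns are FPKM, a unit read from the values: FPKM times the deposited length is a whole number of reads of the library total for every gene. The deposited fold changes, in log2, run WT over DKO, and their sign was turned here. The deposited p-value columns come from the authors' DESeq2 test. The deposited length, of unit other, is in bases; the authors' mean signal and their test score were not used. Entries for reads assigned to no gene (5 in the 5-aza table and 3 in the untreated table) carry no FPKM and were left out.

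Values were log2(FPKM + 1), fitted over all genes of a table in R 4.3.3 by limma 3.58.1, with the variance trended on level. Two-sided p-values were adjusted over all genes by Benjamini-Hochberg; the threshold was 0.05. A gene was tested with 10 or more reads (at the median depth) in 2 libraries and 15 or more overall. Depth sets the precision: 1 read on a gene of 500 bases was worth 0.0343 to 0.102 FPKM. The count model planned for counts was not run, since the columns are FPKM. A test of 5-aza against untreated was not run, since the tables were normalised separately. The fit was tested on simulated data. Named members were, in each table, the 2 highest of each class, in each comparison the 3 with the smallest p in each direction, any past an adjusted p of 0.05 here or in the authors' deposited table, and Hist1h2bn. The members and lists were chosen with earlier results of these data known, and a pattern already seen in them is not independent support. Stem-loops and shared stretches were read from GENCODE M21 transcripts and motifs from RefSeq promoters with Python 3.11.15. Alternatives were other pseudocounts, filters, scalings, voom, a replicate block and leaving out each library.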

Additional observations from a re-analysis of the deposited data

How the results depend on the processing

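The median difference of the members kept its sign after 5-aza and in the interaction under every alternative run; leaving out each library in turn gave -0.42 to -0.17 after 5-aza, -0.44 to -0.10 in the interaction and -0.04 to 0.08 untreated. In the untreated comparison 1 gene passed; without a filter and without a variance trend 0 did, with a pseudocount of 0.1 8 did, and voom on the recovered reads called 147 genes, 2 of them members (Hist1h2bn and Hist1h4i); leaving out each library gave 0 to 1. In the interaction 5 genes passed; 2 did without a filter, without a variance trend and on reads in listed genes, 1 with a pseudocount of 0.1 and by voom, and 0 to 8 with a library left out, with 0 to 1 members. After 5-aza the difference of Hist1h2an, 0.03 as deposited, was -0.017 with median-ratio scaling and -0.040 on reads in listed genes, and ran between -0.15 and 0.21 with a library left out; that of Hist1h2bn, -0.39 as deposited, ran between -0.82 and 0.029, the last without WT replicate 2. The difference of the mean H2A sums in the untreated table was 87.3 FPKM over all members and -9.23 FPKM without Hist1h2al, an alternative chosen after seeing the data. The causes were not tested. Of 298 differences of named members under alternatives, 291 kept direction and side of the threshold. Groups share replicate numbers, but deviations of same-numbered libraries correlated at 0.03 untreated and -0.59 after 5-aza, so the numbers do not pair them; with the replicate block 13 genes passed untreated, 0 after 5-aza and 2 in the interaction, with 0 members. The crossed pairing after 5-aza, chosen after seeing the data, called 91 genes and 0 members. Precision is limited by 2 libraries per group and, for members near 1 FPKM, by low counts, such as 49 reads for Hist3h2a in each WT library after 5-aza.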
